A study of Mus musculus with 4 samples.

Results

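The colon of young male mice on a high-fat diet was compared with that of young mice on a low-fat diet, gene by gene. A measured feature of the array, called a transcript cluster, was included when it carried a single gene symbol and had a linear signal above 50 on at least 1 of the 2 young arrays. Of the 35556 transcript clusters on the array, 21789 carried a single symbol, and 13721 of those, which represent 12482 genes, passed this floor. The other 8068 were below it on both young arrays. At the edge of the floor, Qprt was just inside with 50.0053 and F730043M19Rik just outside with 49.9882 as the higher of its signals on both young arrays.

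To measure the response of the intestine to dietary fat, C57BL/6J mice (labelled C57Bl/6) of 4 months (young) or 21 months (old) received a purified diet with 10% or 45% of its energy as fat for 2 weeks. Both diets contained palm oil in place of lard, and all mice were killed in the fed state. Mucosa and submucosa were scraped from the colon, and equal amounts of RNA from the 6 young or 8 old mice of a diet group were pooled and hybridized to 1 Affymetrix Mouse Gene 1.0 ST array. The series thus holds 4 arrays, young low-fat, young high-fat, old low-fat and old high-fat, and 2 of them make up the young comparison. A pool hides the spread between mice, and with 1 array per group a difference has no replicate check, so that no p-values are given. All differences are log2 signals on the high-fat array minus those on the low-fat array, and all levels are linear signals.

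The colon does not take up most dietary fat, which is absorbed in the small intestine. Its surface is lined by colonocytes, which absorb salt and water and burn butyrate made by bacteria, and by goblet cells, which secrete mucus. Beneath this epithelium lie connective tissue, immune cells, a thin muscle layer and the submucosa, and further out the thick muscle coat, with mesenteric fat attached outside. Cells that take up fatty acids usually switch on fatty acid oxidation through the nuclear receptor PPAR alpha and reduce their own fatty acid synthesis, which is driven by the transcription factor SREBP-1c.

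The samples carried the profile of colon. All 20 colonocyte markers were above the floor, among them Car1, a carbonic anhydrase of the colon surface, with 15400 on the young low-fat and 16700 on the young high-fat array. The mucin gene Muc2 read 13700 and 12800. Of 18 small intestinal genes measured, 15 were also above the floor, Sis and Slc10a2 (2620 and 3300) among them. Fabp1, Lct and Treh were below it on both young arrays. Albumin (Alb) was below the floor on both young arrays, as were both erythrocyte markers measured.

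Differences between the young arrays were small. The log2 differences had an SD of 0.232 and a median of 0.001, and 77.1% of the transcript clusters differed by less than 1.2-fold. Among the transcript clusters 13 (0.0947%) were over 2.0-fold higher with the high-fat diet and 5 (0.0364%) over 2.0-fold lower, and 130 (0.947%) were over 1.5-fold higher and 89 (0.649%) over 1.5-fold lower. With 1 transcript cluster for each gene, the one with the highest mean signal, 10 of 12482 genes (0.0801%) were over 2.0-fold higher and 5 (0.0401%) lower. At 1.5-fold these shares were 0.825% higher and 0.649% lower, and at 1.2-fold 10.9% higher and 11.5% lower. Those shares are the background for the gene lists below, which are counted over genes.

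The spread between the young arrays lay within that of the other pairs. Over the same transcript clusters the 6 possible pairs of arrays had SDs from 0.204 to 0.266, and 3 of the other 5, among them the pair of old arrays (0.213), had a smaller SD than the young diet pair. The smallest SD belonged to the young low-fat and old high-fat arrays, which differ in both age and diet, and the largest to the pools of both ages on the high-fat diet. Transcript clusters with no gene symbol stood apart: of 6704 above the floor, 427 (6.37%) had a more than 2.0-fold greater signal and 50 (0.746%) a more than 2.0-fold smaller signal in the young high-fat pool, whereas in old mice 30 were over 2.0-fold higher and 253 lower with fat. Centring each array on its median over all features would lower every young difference by 0.068, and would turn the 130 higher and 89 lower at 1.5-fold into 79 higher and 171 lower. The part of these features in the results below was not tested.

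**Figure D1:**
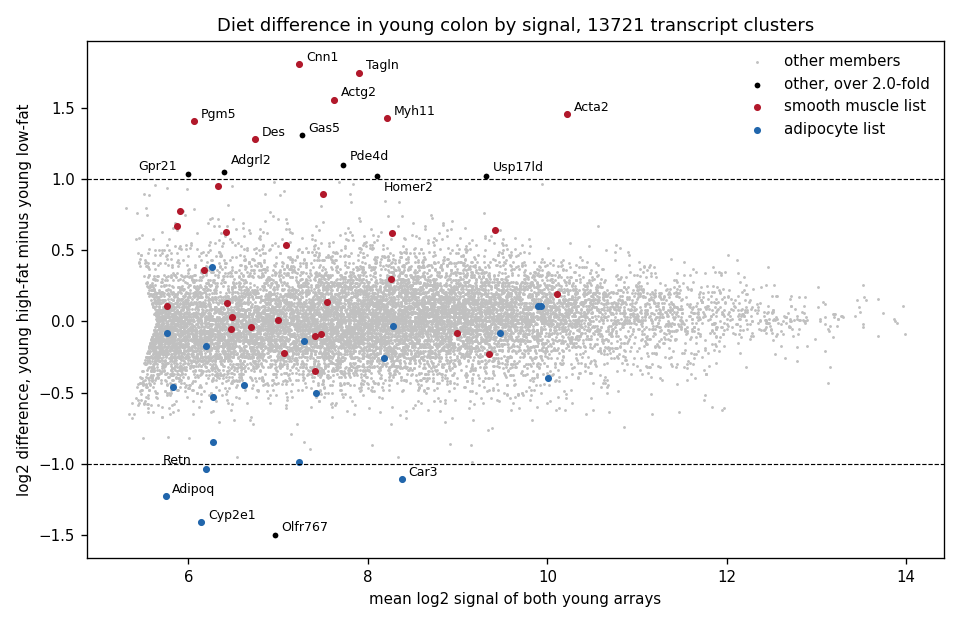
The log2 difference between the young high-fat and young low-fat arrays (vertical axis) is plotted against the mean log2 signal of both arrays for all 13721 transcript clusters. Dashed lines mark 2.0-fold, red points the smooth muscle list, blue points the adipocyte list and black points the other members over 2.0-fold. Smooth muscle genes hold the 5 highest values and the Cyp2e1, Adipoq, Car3 and Retn points lie among the 5 lowest.

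The most prominent difference was in genes of smooth muscle, the contractile tissue of the gut wall. Of 25 such genes above the floor, 17 were over 1.2-fold higher, 14 over 1.5-fold and 7 over 2.0-fold, and none was over 1.2-fold lower. Their median log2 difference was 0.63, against -0.004 for all genes. Pgm5, Synpo2 and Pcp4 passed the floor through the high-fat array alone, where they were high. Of the 22 genes above it on both young arrays, 14 were over 1.2-fold higher, 11 over 1.5-fold and 6 over 2.0-fold, with a median of 0.58. The summed signal of the list was 5844 on the young low-fat and 9168 on the young high-fat array, against 6149 on the old low-fat and 5734 on the old high-fat array. Only the young high-fat array was high, and the other 3 were close together. In pooled tissue, more cells of a type and more RNA per cell cannot be told apart.

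Cnn1 encodes calponin, an actin-binding regulator of smooth muscle contraction. Its signal was 80.4 on the young low-fat, 281 on the young high-fat, 84.6 on the old low-fat and 85.6 on the old high-fat array, a difference of 1.81 (3.50-fold) in young mice. Tagln, which encodes the actin-binding protein transgelin, read 131, 441, 167 and 150 in the same order, a difference of 1.75 (3.36-fold). For both genes the young high-fat pool exceeded each of the other 3 by more than 1.5-fold.

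The smooth muscle actins differed likewise. Actg2, the gamma actin of visceral muscle, read 115 and 339 in young and 109 and 92.0 in old mice (1.56, 2.95-fold in young mice), the low-fat pool first in each pair. Acta2, the alpha actin also made by myofibroblasts, read 718 and 1970 in young and 989 and 694 in old mice (1.46, 2.75-fold in young mice). Myh11, the smooth muscle myosin heavy chain, read 181 and 487 in young and 200 and 190 in old mice (1.43, 2.70-fold). Each of these genes peaked on the young high-fat array, and Acta2 was the one whose old high-fat array was lowest relative to the old low-fat array (-0.51).

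Structural partners of the contractile apparatus completed the group over 2.0-fold. Des encodes desmin, the intermediate filament of muscle, and read 68.5 and 166 in young and 62.1 and 72.6 in old mice (1.28, 2.42-fold). Pgm5, a protein of muscle adhesion sites, read 41.1 and 109 in young and 49.5 and 43.0 in old mice (1.41). Its low-fat signal was below the floor, so that its fold of 2.66 is not exact. The tropomyosin gene Tpm2 (0.95) and the myosin light chain gene Myl9 (0.90) were just below 2.0-fold. Further members over 1.5-fold were Synpo2 (0.78), Pcp4 (0.67), Csrp1 (0.64), Cald1 (0.63) and Flna (0.62).

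Some genes of the list did not follow. Vcl, which encodes the adhesion protein vinculin, had a difference of -0.23, Actn1 of -0.08, Smtn of 0.01 and Lmod1 of 0.11. The transcriptional coactivator of smooth muscle genes, Myocd, was below the floor on both young arrays, as were Kcnmb1, Itga8 and Cacna1c. Genes of neighbouring cell types had values in both directions. Of 6 genes on the list of interstitial cells of Cajal, the pacemaker cells between muscle layers, 1 was over 1.2-fold higher (Gja1, 0.32). On that list 2 were over 1.5-fold lower, Ano1 (-0.75) and Thbs4, which read 1800 and 1170 in young mice (-0.62). The 6 include the fatty acid elongase gene Elovl6 (0.22), which is not a marker of these cells. Kit, the receptor marker of the pacemaker cells, which mast cells also carry, read 846 and 854. The 18 fibroblast and collagen genes had a median of -0.03, with 3 over 1.2-fold higher (Dcn 0.61, Fn1 0.44 and Postn 0.37). The 6 neuronal genes above the floor had a median of 0.19 and 13 others were below it. All 6 endothelial genes above the floor had values below 0, with 1 over 1.2-fold lower, and 9 others were below it. Most of the 6 were near the floor, and Cldn5 (51.7 and 45.9) passed it through the low-fat array alone. The fifth of all transcript clusters with the lowest signal also had a median below 0 (-0.075). Of 12 skeletal muscle genes 6 were above the floor, with a median of -0.06.

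Smooth muscle genes are known targets of serum response factor, which binds the CArG box, a pair of C and a pair of G bases around a core of A and T. Promoter windows from 250 bases before to 50 bases after the start, taken from RefSeq (GRCm38.p6) and searched on both strands, were found for 22 of the 25 genes, but not for Tagln, Actg2 and Myh11. A gene can have several windows and was counted once. A strict CArG box was in 2 of the 22 genes, Myl9 and Vcl, and in 1.81% of the 27025 genes in the table (1.63% of 32851 promoters). With 1 G or C allowed in the core, a search added after the data were seen, it was in 6 of the 22 (Acta2, Hspb6, Myl9, Pcp4, Synm and Vcl) and in 11.3% of all genes (9.98% of promoters). Vcl and Hspb6 (-0.04) carried it although their signal was not higher. Of the 13 genes past 2.0-fold with a window, none held the strict and 1 the relaxed box (Acta2), and 2 of 13 adipocyte genes held the relaxed box. A match is a description of the letters and not a measured binding site. The 150 bases of Acta2 and of Myl9 that hold the matches are shown because both genes were higher with fat in young mice, with the matches in capitals. They lie at chr19:34255324-34255473 on the minus strand for Acta2 and at chr2:156775289-156775438 on the plus strand for Myl9.
Acta2: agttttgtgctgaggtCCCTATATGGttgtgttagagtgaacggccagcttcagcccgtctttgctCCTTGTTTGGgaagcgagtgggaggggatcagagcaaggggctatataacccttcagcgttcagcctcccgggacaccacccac
Myl9: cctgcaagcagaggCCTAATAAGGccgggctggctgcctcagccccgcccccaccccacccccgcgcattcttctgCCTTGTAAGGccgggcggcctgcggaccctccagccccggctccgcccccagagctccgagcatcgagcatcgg

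In these windows the first base of the matches was at -84 and -34 from the start in Acta2 and at -161 and -99 in Myl9, where only the match at -161 was strict. The E box CANNTG was in 16 of the 22 smooth muscle genes and in 75.0% of all genes (72.3% of promoters). All 13 genes past 2.0-fold with a window held an E box. None of those held the DR1 element bound by PPAR receptors, a repeat of AGGTCA with 1 base between, which was in 13 promoters (0.0396%) of the table.

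Genes of fat cells were lower on the high-fat diet in young mice. Of 20 adipocyte genes above the floor, 11 were over 1.2-fold lower, 6 over 1.5-fold and 4 over 2.0-fold, whereas 1 was over 1.2-fold higher (Slc2a4, 0.38). The median was -0.42. Adipoq, Cyp2e1 and Thrsp passed the floor through the low-fat array alone, where they were high. Of the 17 genes above it on both young arrays, 8 were over 1.2-fold lower, 4 over 1.5-fold and 2 over 2.0-fold, and the median was -0.26. It was also -0.26 with no floor and -0.27 with 50 added to each signal. In old mice the median of the 20 genes was 0.60, with 14 over 1.2-fold higher and 1 lower. The summed signal of the list was 6349 on the young low-fat, 5380 on the young high-fat, 6232 on the old low-fat and 8928 on the old high-fat array. By this sum the young high-fat array was the lowest of the 4 and the old high-fat array the highest. Pck1 (1180 and 898 in young mice), Pparg (937 and 1010) and Pnpla2 (729 and 688) weigh more in it than Adipoq or Fabp4. The sum is therefore not a measure of the fat cell markers alone.

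Adipoq encodes adiponectin, a hormone secreted by fat cells. It read 81.9 on the young low-fat, 35.0 on the young high-fat, 94.1 on the old low-fat and 208 on the old high-fat array, a difference of -1.23 in young and 1.14 in old mice. Car3, an abundant carbonic anhydrase of fat and muscle, read 488, 226, 608 and 1250 in that order (-1.11 and 1.04). Retn, which encodes the fat cell hormone resistin, read 105, 51.3, 98.9 and 157 (-1.04 and 0.67). These 3 genes were lowest in the young high-fat pool and highest in the old high-fat pool.

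Fabp4 and Cd36, which handle fatty acids in fat cells, were likewise lowest in the young high-fat pool and highest in the old high-fat one. Fabp4, the fatty acid binding protein of adipocytes, read 213, 107, 247 and 584 (-0.99 and 1.24), and Cd36, a fatty acid transporter, read 104, 57.6, 165 and 346 (-0.85 and 1.07). The lipid droplet coat gene Plin1 (-0.53), the lipases Lpl (-0.50) and Lipe (-0.45) and the lipogenic gene Thrsp (-0.46) were lower by less. Lpl read 203 and 144 in young and 135 and 376 in old mice, so that its lowest array was the old low-fat one. Cyp2e1, an oxidase that is abundant in liver and also made in fat, read 115 and 43.5 in young and 191 and 173 in old mice (-1.41 and -0.14). The high-fat signals of Adipoq and Cyp2e1 in young mice were below the floor, so that their folds of 2.34 and 2.65 are not exact. Lep, Cidea and Ucp1 were below the floor on both young arrays. The adipocyte regulator Pparg, which colonocytes also express, read 937 and 1010 (0.11). Of the other tissues that a scraping could hold, pancreatic acinar genes had a median of -0.18 over 10 genes, with 4 over 1.2-fold lower and none higher (Ctrl -0.71, Cpa1 -0.57). Of the lower ones, Cpa1 (53.0 and 35.8) and Ctrb1 (57.7 and 47.2) passed the floor through the low-fat array alone, where they were high. Liver plasma protein genes had a median of -0.13 over 7, with 3 over 1.2-fold lower and none higher. Of these 2 were over 1.5-fold lower, Trf (-0.90) and Hpx (-0.65), and Hpx passed the floor through the low-fat array alone. Mesothelial genes had a median of -0.11 over 4, with 1 over 1.2-fold higher and 1 lower. The lower one was Krt19 (-0.43), which made up most of the summed signal of the list (10400 of 10600 on the young low-fat array). Lrrn4, Wt1, Bnc1 and Gpm6a were below the floor on both young arrays. The part of these tissues in the results was not tested.

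**Figure D2:**
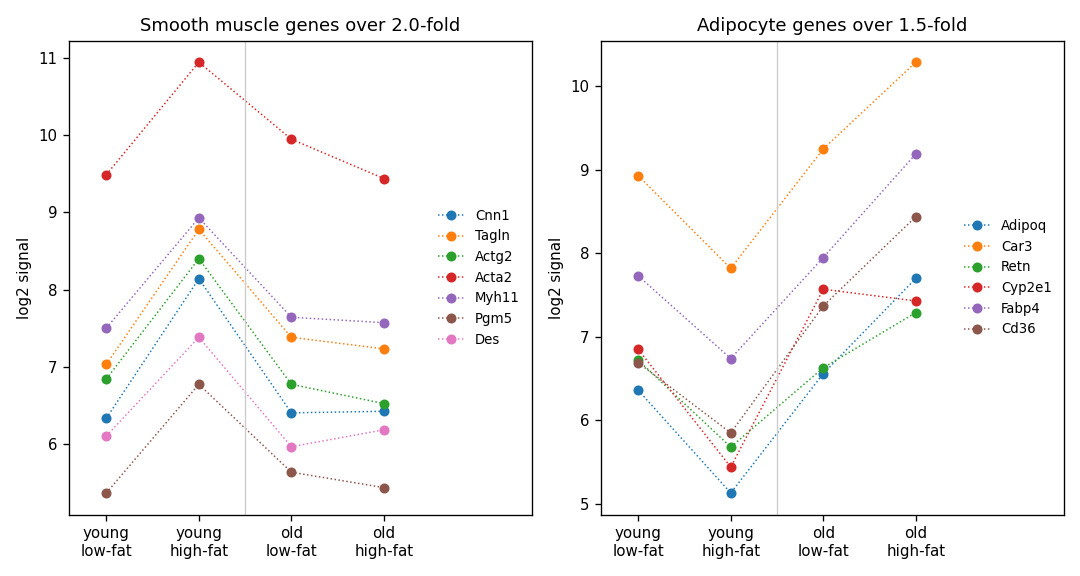
Log2 signals (vertical axes) of the 7 smooth muscle genes over 2.0-fold (left) and of 6 adipocyte genes over 1.5-fold in young mice (right) are shown on each of the 4 arrays, 1 point per pooled array. Dotted lines join the points of a gene and the grey line parts the ages. Smooth muscle genes were high on the young high-fat array alone, whereas the adipocyte genes were low there and, except for Cyp2e1, high on the old high-fat array.

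Fatty acid synthesis was the metabolic list with the lowest median. Of 17 genes, all above the floor, 8 were over 1.2-fold lower and none over 1.2-fold higher, with a median of -0.25 against 0.06 in old mice. Scd1, the desaturase that makes monounsaturated fatty acids, read 805 and 406 in young and 1090 and 1140 in old mice (-0.99, 1.99-fold). It was low on the young high-fat array alone. Acly, which supplies cytosolic acetyl-CoA, read 1290 and 965 in young and 1020 and 1330 in old mice (-0.42), and Fasn, the fatty acid synthase, read 694 and 526 in young and 590 and 631 in old mice (-0.40).

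Further genes of synthesis and desaturation lay between 1.2- and 1.5-fold lower: Acss2 (-0.34), Acacb (-0.33), Fads1 (-0.32), Fads2 (-0.29) and Thrsp, already given with the fat cell genes. Elovl6, an elongase of the pathway, had a difference of 0.22, and the regulator Srebf1, which encodes SREBP-1c, read 365 and 334 (-0.13). Scd1 and Acly are also abundant in fat cells, whose markers were lower on the same array. The part of those cells in the difference was not tested.

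Fatty acid oxidation genes differed little between the young arrays. Of 27 PPAR alpha targets and oxidation genes above the floor, 1 was over 1.2-fold higher and 2 were lower, and the median was -0.01. The pantetheinase gene Vnn1, a PPAR alpha target, read 595 and 825 in young and 931 and 927 in old mice (0.47). Pdk4, the kinase that spares glucose by blocking pyruvate dehydrogenase, read 266 and 298 (0.16), Angptl4 108 and 104 (-0.05), and Cpt1a, which admits fatty acids to mitochondria, 2200 and 1840 (-0.26). The 2 lower genes were Acadvl (-0.45) and Acaa1a (-0.36). Cyp4a10, Cyp4a14 and Fgf21, further targets, were below the floor on both young arrays.

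Fat uptake and lipoprotein genes had a median of 0.05 over 19 genes, with none over 1.2-fold higher and 4 lower. Next to Cd36 these were Apoa4 (-0.61), Pla2g12b (-0.56) and Plin2 (-0.36), the lipid droplet coat of most cells, which read 1620 and 1260 in young and 1220 and 1780 in old mice. Apoa4 passed the floor through the low-fat array alone, where it was high (68.1 and 44.6). Of 20 genes of cholesterol synthesis and uptake, 5 were over 1.2-fold higher and 1 lower, and 13 had values above 0. Their median of 0.07 was close to the 0.068 that centring on the array medians would remove. Idi1, an isomerase of the early pathway, read 595 and 886 on one transcript cluster and 514 and 775 on the other (0.58 and 0.59). Tm7sf2 (0.45), Hsd17b7 (0.36), Msmo1 (0.31) and Sc5d (0.30), enzymes of the late steps, were higher, whereas Lss was lower (-0.29). Mvk (-0.26), Pmvk (-0.12) and Mvd (-0.11) also had values below 0. Of the genes of bile acid handling, the ileal binding protein Fabp6 read 461 and 674 in young and 1720 and 1200 in old mice (0.55), and the bile acid transporter Slc10a2 read 2620 and 3300 in young and 2140 and 2190 in old mice (0.33). The cholesterol exporter Abca1 was lower (-0.38).

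Genes of glucose use were lower or close to 0. Among 17 genes of glucose transport and glycolysis 4 were over 1.2-fold lower and none over 1.2-fold higher, with a median of -0.08 in young and 0.18 in old mice. Hk2, the inducible hexokinase, read 1160 and 716 in young and 1040 and 1390 in old mice (-0.69). Pfkl, a subunit of phosphofructokinase, read 973 and 682 in young and 601 and 955 in old mice (-0.51). Both were lower on the high-fat diet in young and higher in old mice. Tpi1 (-0.29) and Pck1 (-0.40) were the other lower genes. Pck1 serves glucose synthesis rather than glycolysis and is also on the adipocyte list. Hk1 differed between its transcript clusters, with -0.62 on the dimmer and -0.03 on the brighter one. Pcx, which makes oxaloacetate from pyruvate and belongs to none of the lists, read 447 and 232 in young and 340 and 514 in old mice (-0.95).

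Mitochondrial and ribosomal genes gave medians near 0. Of 31 respiratory chain genes 1 was over 1.2-fold higher (Cyc1, 0.42) and 2 were lower (Cox4i1, -0.55, and Ndufa9, -0.43), with a median of 0.00. Of 21 ribosomal protein genes 2 were higher and 3 lower. Rpl10a was lower on each of its 4 transcript clusters, by 0.52 to 0.62 on the log2 scale. Butyrate genes had a median of -0.09 with 1 of 12 over 1.2-fold lower (Acss1, -0.35).

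**Figure D3:**
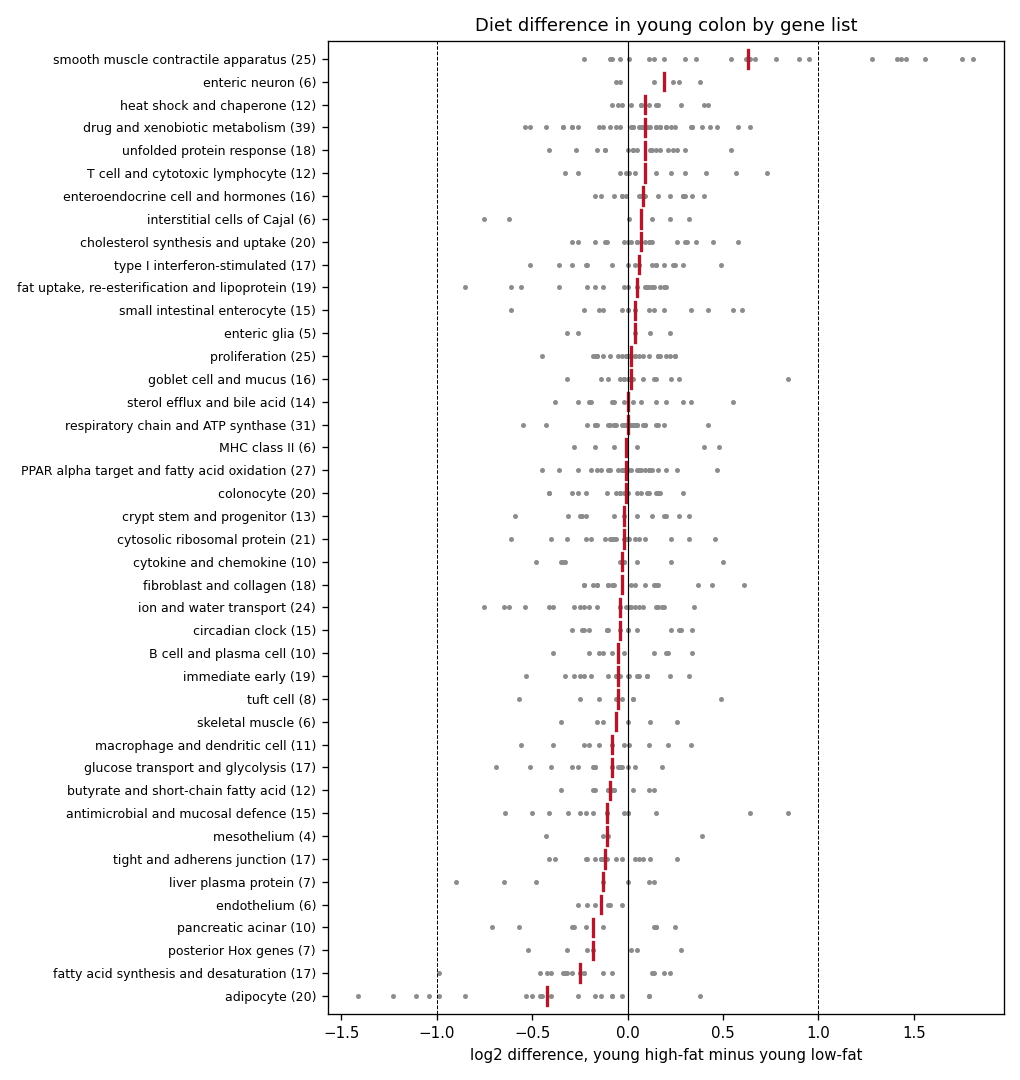
Log2 differences between the young high-fat and young low-fat arrays (horizontal axis) are shown for each gene list with at least 3 genes above the floor, the number of genes in parentheses. Grey points are genes, red bars list medians and dashed lines 2.0-fold. Smooth muscle (median 0.63) and adipocyte genes (-0.42) mark the ends of the order, followed at the low end by fatty acid synthesis (-0.25).

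Medians of the epithelial cell lists lay close to 0. Colonocyte genes had a median of -0.01, with 1 of 20 over 1.2-fold higher (the organic solute transporter subunit Slc51b, 0.29) and 4 lower, among them the water channel Aqp8, which read 3470 and 2600 (-0.41). Goblet cell genes had a median of 0.02, proliferation genes 0.02 and crypt stem cell genes -0.02. Lgr5, the receptor that marks crypt stem cells, read 183 and 221 (0.27), and Mki67, a marker of dividing cells, 554 and 552. The receptor Ephb3, which positions cells along the crypt, read 284 and 188 in young and 230 and 281 in old mice (-0.59). Among posterior Hox genes, which carry position along the gut, Hoxb13 read 896 and 627 in young and 761 and 989 in old mice (-0.52).

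Ion transport genes past 1.2-fold were mostly lower. Of 24 genes above the floor 1 was over 1.2-fold higher and 7 were lower, 3 of them over 1.5-fold. The list median was -0.04 in young and -0.14 in old mice, and 10 of the 24 genes had values above 0 in young mice. Ano1, a calcium-activated chloride channel that is also made by the pacemaker cells of the gut, read 866 and 517 in young and 748 and 835 in old mice (-0.75). Atp12a, the proton-potassium pump of the colon, read 2870 and 1840 in young and 2020 and 2280 in old mice (-0.65). The potassium channel Kcnn4 read 505 and 328 in young and 410 and 589 in old mice (-0.62). All 3 were lowest on the young high-fat array. Kcnk5 (-0.54) and Best2 (-0.39) were lower too, and the bicarbonate cotransporter Slc4a4 was higher (0.35). Of 17 junction genes 2 were lower, Tjp3 (-0.41) and Cgn (-0.38), and the median was -0.12.

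Defence genes of the mucosa differed in both directions. Reg3b, an antibacterial lectin, read 3540 and 2270 in young and 3870 and 1590 in old mice (-0.64 in young, -1.29 in old). Its paralog Reg3g read 1930 and 1370 in young and 3370 and 1140 in old mice (-0.50 and -1.57). They were lower on the high-fat diet at both ages. Retnlb, which encodes a goblet cell protein against bacteria, read 244 and 435 in young and 399 and 339 in old mice (0.84), and the acute phase gene Saa3 read 377 and 589 in young and 443 and 374 in old mice (0.64). For these the old difference was -0.24 each. Over the whole list of 15 defence genes, 2 were over 1.2-fold higher and 4 lower.

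Hormone genes of enteroendocrine cells were the epithelial list with the most genes over 1.2-fold higher. Of 16 above the floor 5 were over 1.2-fold higher and none lower. The median of 0.08 was close to the 0.068 that centring on the array medians would remove. Cck, the satiety hormone cholecystokinin, read 58.3 and 77.0 in young and 71.3 and 68.1 in old mice (0.40). Nts (0.34) and Gcg, the precursor of glucagon-like peptides (0.30), were higher, with Neurod1 and Isl1, transcription factors of these cells (0.29 each). Isl1 passed the floor through the high-fat array alone, where it was high (48.1 and 58.9). Pyy, the peptide of colon endocrine cells, read 1780 and 1770 (-0.01).

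Detoxification genes were split. Of 39 above the floor 8 were over 1.2-fold higher and 8 lower, and the median was 0.09 at both ages. The glucuronosyltransferase genes Ugt2b36 (0.64) and Ugt2b5 (0.58) and the cytochrome P450 gene Cyp2c65 (0.47) were higher. The last read 3510 and 4850 in young and 3840 and 4030 in old mice. Cyp2s1 (-0.54), the xenobiotic receptor gene Nr1i2 (-0.51) and the exporter gene Abcc3 (-0.43) were lower. Nr1i2 read 891 and 627 in young and 702 and 932 in old mice.

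Immune genes differed in both directions, mostly by less than 1.5-fold. Of 68 genes above the floor on the immune lists, 12 were over 1.2-fold higher and 13 lower, a larger share than over all genes (10.9% and 11.5%), but 1 was over 1.5-fold higher and none lower. Among 12 T cell and cytotoxic lymphocyte genes above the floor, 4 were over 1.2-fold higher and 1 lower, with a median of 0.09. The lower one was Prf1, also a gene of killer cells, which read 69.5 and 55.2 in young mice (-0.33). Gzmb, a granzyme of killer cells, read 59.4 and 98.8 in young and 167 and 193 in old mice (0.73), Gzma read 66.3 and 98.4 in young and 147 and 182 in old mice (0.57), and Cd8a read 131 and 175 in young and 281 and 359 in old mice (0.41). Gzmb, Gzma and Cd8a were lowest on the young low-fat array, and both old arrays were above both young ones. Of 6 MHC class II genes, which present antigen, H2-Aa (0.48) and H2-Ab1 (0.40) were over 1.2-fold higher and Cd74 lower (-0.28), with a median of -0.01. Of 17 interferon-stimulated genes 2 were higher (Ddx60, 0.49, and Herc6, 0.29) and 3 lower, with Oas1a (-0.51) the lowest, and the median was 0.06. Of 10 cytokine and chemokine genes above the floor 1 was higher (Ccl25, 0.50) and 4 were lower, led by Ccl20 (-0.48). B cell and plasma cell genes had 1 of 10 higher and 1 lower (median -0.05), and macrophage genes 1 of 11 higher and 2 lower (median -0.08). The cytokine genes Ifng, Il1b and Il6 were below the floor, and Tnf read 58.4 and 46.6 (-0.33). Tnf and Flt3, a lower macrophage and dendritic cell gene (55.8 and 37.9), passed the floor through the low-fat array alone, where they were high. Clock genes (median -0.04), immediate early genes (-0.05), heat shock genes (0.09) and genes of the unfolded protein response (0.09) had 3, 1, 3 and 2 genes over 1.2-fold higher and 1, 3, 0 and 2 lower.

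**Figure D4:**
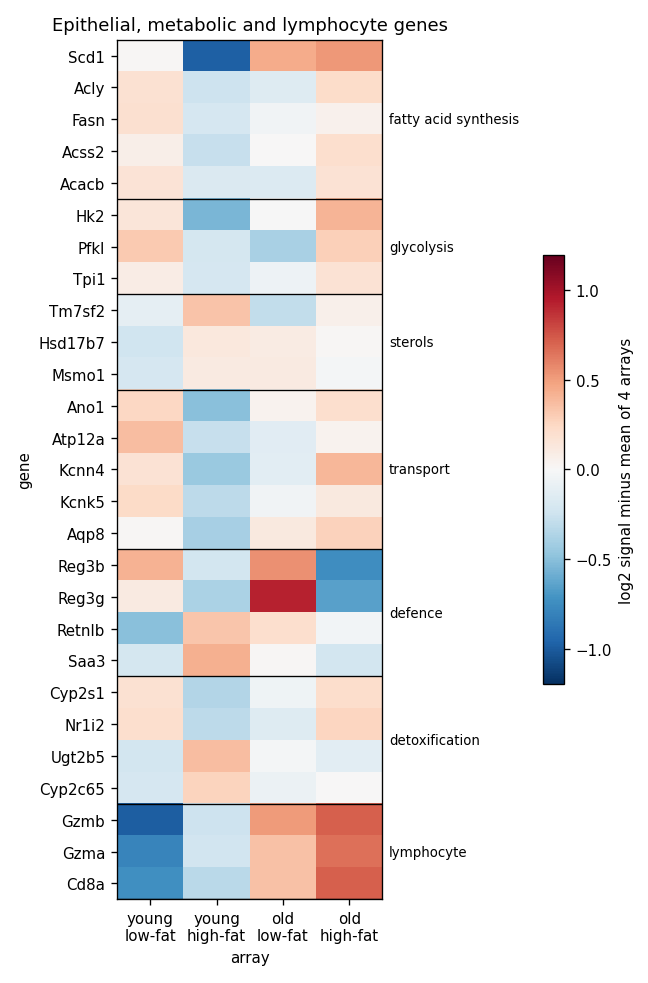
Colours give the log2 signal of each gene on each of the 4 arrays minus the mean of that gene over the 4 arrays, from 1.2 below (blue) to 1.2 above (red), with genes grouped by function. Scd1 was low on the young high-fat array alone, Hk2, Pfkl and Nr1i2 were lower with fat in young but not in old mice, where they were higher, and Reg3b and Reg3g were lower with fat at both ages.

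Several other genes past 2.0-fold rested on 1 transcript cluster of many. Gas5, a noncoding RNA that hosts small nucleolar RNAs, had 4 transcript clusters, of which the dimmest read 97.9 and 242 (1.31) and the other 3 lay between -0.17 and 0.14. Pde4d, a cyclic AMP phosphodiesterase, had 3 with -0.06, 0.51 and 1.10, and Homer2, a synaptic scaffold, had 2 with -0.04 and 1.02. The adhesion receptor gene Adgrl2 had 8, from -0.12 to 1.05 with a median of 0.17. By contrast, each smooth muscle and adipocyte gene past 2.0-fold had 1 transcript cluster above the floor, so that no second reading of it exists. Over the 705 genes with several, the median range between the lowest and highest difference was 0.127, and 35 genes (4.96%) had a range above 1.5-fold. Some of these genes, such as Dnajc3 and Rpl41, had the same difference on all their transcript clusters (range 0.0). Whether such clusters are separate readings was not tested, so the median range may understate the spread.

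The remaining genes over 2.0-fold had little in common with the lists. Olfr767, an olfactory receptor gene, read 210 and 74.2 in young and 67.6 and 80.0 in old mice (-1.50), so that the young low-fat pool stood apart. Usp17ld, a deubiquitinase gene of a family of close copies whose signals may not be separable, read 449 and 908 in young and 562 and 662 in old mice (1.02). The receptor gene Gpr21 read 44.8 and 91.8 in young and 78.5 and 41.7 in old mice (1.04 and -0.91). It passed the floor through the young high-fat array alone, where it was high. Its young low-fat and old high-fat signals were below the floor, so that both folds are not exact. Hmcn1, a large extracellular matrix gene with 77 transcript clusters, had 58 above the floor, of which 34 were over 1.2-fold lower and none higher, with a median of -0.30 and a lowest value of -0.95. In old mice 7 of the 58 were over 1.2-fold lower and 5 higher.

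The diet difference of young mice was set beside that of old mice, which shares no array with it. Across the 13721 transcript clusters Pearson's r was -0.43 and Spearman's rho -0.41. This is a description across genes, which are not replicates, and all 4 arrays were normalized together. Over the 6704 features with no gene symbol r was -0.42 as well, and the smallest SD between arrays belonged to a pair that differs in age and diet. Whether the opposite signs at both ages come from diet or from a feature of the arrays cannot be told apart with 1 array per group. Over the same genes 10.5% were over 1.2-fold higher and 8.69% over 1.2-fold lower in old mice. Of the 130 transcript clusters over 1.5-fold higher in young mice, 6 were over 1.2-fold higher in old mice and 72 over 1.2-fold lower. Of the 89 over 1.5-fold lower in young mice, 5 were over 1.2-fold lower in old mice and 45 over 1.2-fold higher. Most of the larger young differences thus had the opposite sign in old mice or were within 1.2-fold there, as 52 of the higher and 39 of the lower ones were.

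**Figure D5:**
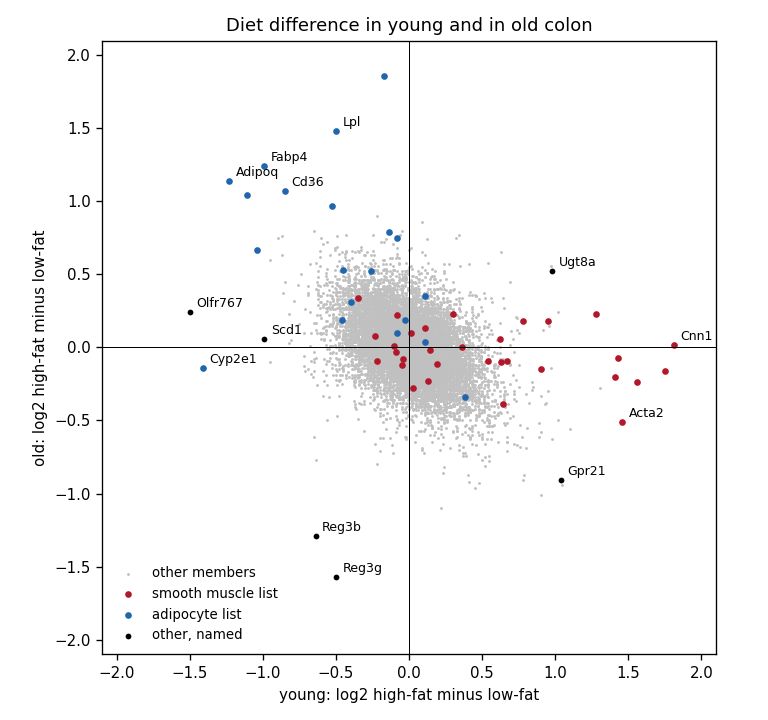
The log2 difference between diets in old mice (vertical axis) is plotted against that in young mice (horizontal axis) for all 13721 transcript clusters, with smooth muscle genes in red, adipocyte genes in blue and other named genes in black. The cloud runs from upper left to lower right (r = -0.43), the smooth muscle genes over 1.5-fold lie to the right, between -0.51 (Acta2) and 0.23 (Des) in old mice, and Adipoq, Fabp4 and Cd36 lie at the upper left.

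A few genes were set apart by 1 array. Only the young arrays were searched for such genes, and not the old ones. The young high-fat array was over 1.5-fold above all 3 others for 18 of the 12482 genes, 9 of them from the smooth muscle list. Among the rest were Sis, the sucrase-isomaltase of the small intestine, which read 303 and 458 in young and 264 and 257 in old mice (0.60), the nucleoside transporter gene Slc28a2 (58.7 and 96.7 in young, 63.3 and 49.7 in old mice), Smim6 (163 and 319, 212 and 193) and Depp1 (142 and 230, 103 and 112). It was over 1.5-fold below all 3 others for 17 genes, 6 of them adipocyte genes, with Scd1, Hmcn1 and the iron carrier gene Trf among the rest. Trf read 223 and 120 in young and 220 and 369 in old mice (-0.90). The young low-fat array stood above the 3 others for 3 genes, Olfr767, Pla2g2c and Wdr54, and below them for Dcn and Gzmb.

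Few genes differed alike at both ages. Over 1.3-fold higher on the high-fat diet in young and in old mice were Ugt8a, an enzyme of galactosylceramide synthesis (0.98 and 0.52), the noncoding RNA AY036118 (0.97 and 0.56), Cav1, which encodes caveolin (0.69 and 0.45), Tns1 (0.63 and 0.65 on 1 of its 6 transcript clusters), Pcgf1 (0.54 and 0.58), Fam3c (0.42 and 0.38) and Reg4, a lectin of the Reg family (0.41 and 0.57). Over 1.3-fold lower at both ages were Reg3b and Reg3g, given above, Hpx (-0.65 and -0.61), Rdh18-ps (-0.64 and -0.77), 1 transcript cluster of Hmcn1 (-0.56 and -0.50) and 4933408J17Rik (-0.49 and -0.47). The smooth muscle, adipocyte and fatty acid synthesis genes over 1.5-fold in young mice were not among them.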

How the data were processed

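RNA from scrapings of the colon was pooled per group by the authors and hybridized to 1 array per pool. The authors deposited log2 signals made with RMA (version not given in the sources used here), that is, after background correction, quantile normalization of all arrays together and summary of the probes of each feature. Rows are numbered by the transcript clusters of the manufacturer, although the methods speak of features regrouped per Entrez gene. The annotation named 1 gene for 21789 features, several for 1621 and none for 12146, and features with several or none were not named. Entrez identifiers of 13691 of the 13721 features were found in RefSeq (GRCm38.p6) and no symbol differed. A floor of 50 on either young array and folds of 1.2, 1.5 and 2.0 were used, 2.0 as in the study. No test was possible with 1 array per group, and the number of arrays limits the precision.

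For lists, the feature with the highest mean signal over both young arrays stood for a gene. A median was given for lists with at least 3 genes above the floor. The 44 lists hold 841 genes, of which 768 were measured and 611 were above the floor. Members and lists were chosen with earlier results of these data known. Named genes were those over 2.0-fold, the 20 highest and 20 lowest above the floor on both arrays, and up to 8 per list with its first 2, besides genes chosen after their values were seen: those shared between ages or set apart by 1 array, and list genes given as markers or for their small difference. Promoters were those of RefSeq. Alternatives were median centring, removal of the trend with signal by lowess, other floors, 1 feature per gene, 50 added to each signal, the mean of the features of a gene, and leaving out lists of other tissues. Python 3.11.15 with pandas 2.3.3, statsmodels 0.14.6 and matplotlib 3.10.9 was used, and the procedures were tested on simulated data.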

Additional observations from a re-analysis of the deposited data

Results flagged for a closer look

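Effects of diet that differed between ages were looked for among genes over 1.5-fold in opposite directions in young and old mice and over 2.0-fold in at least one age, each gene represented by its brightest transcript cluster. The difference between ages was not tested, since each group had 1 array. The log2 difference between diets in young minus that in old mice was -2.37 for Adipoq, -2.24 for Fabp4, -2.15 for Car3, -1.91 for Cd36 and -1.70 for Retn, which are genes of fat cells. It was -1.80 for Tsr3, a gene of ribosome maturation, 1.91 for the microRNA gene Mir151 and 1.95 for Gpr21. A dimmer transcript cluster of Adgrl2 would also have met these limits (1.05 in young and -0.94 in old mice), whereas the brightest one did not.

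Signal also differed in features outside the comparison of named genes. Among transcript clusters with no gene symbol, 427 were over 2.0-fold higher and 50 over 2.0-fold lower on the young high-fat than on the young low-fat array. Their identity was not analysed here.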

How the results depend on the processing

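With 1 pooled array per group, counts past a fold describe these arrays, and folds against signals below 50 are not exact. The count over 2.0-fold higher was 13 and became 5 with 50 added to each signal and 6 without the lists of other tissues. The count over 2.0-fold lower was 5 and became 9 with arrays centred on their medians, 3 with a floor on both arrays, 1 with 50 added and 1 without lists of other tissues. The count over 1.5-fold higher was 130 and became 79 with centring and 42 with 50 added. The count over 1.5-fold lower was 89 and became 171 with centring, 140 with no floor and 33 with 50 added. The other 21 of 32 recounts were within 1.5 times. The smooth muscle median of 0.63 became 0.40 with 50 added. The adipocyte median of -0.42 became -0.26 with a floor on both arrays, -0.26 with no floor and -0.27 with 50 added. Medians of fatty acid synthesis and of glycolysis moved by under 0.1. No list median of over 0.1 and no named gene over 1.2-fold changed sign, although 109 of 1104 recomputed gene values moved by 0.1 or more. The causes were not tested. Depth does not apply to arrays. No paired analysis was possible because each group had 1 array.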
